A study of Mus musculus with 24 samples.

Results

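Ubiquitin-specific proteases (the Usp genes) were followed across 4 states of mouse CD4 T cells, together with their relatives of the ubiquitin C-terminal hydrolase (Uchl) and Otud groups. The members were chosen by name, with no measured value in the rule, as every probe of an Illumina mouse BeadChip whose gene symbol in the deposited table was Usp followed by a number or began with Uchl or Otud. Usp18, an interferon-induced protease of the ubiquitin-like protein ISG15, was left out. This gave 74 of the 25697 probes, for 45 of 17880 genes. A probe was kept where it was detected (detection p at most 0.02) on at least 1 array, which left 55 member probes of 37 genes. Probes for Uchl1, Uchl4, Usp9y, Usp17, Usp26, Usp27x, Usp43 and Usp49 were detected on none of the 24 arrays, and 19 member probes in all were not kept. Of the kept member probes, 29 were detected on all arrays, and each array detected 39 to 49 of them. Family genes that the table lists under an older symbol without this prefix are not among the members.

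The arrays covered 2 genotypes in each state, with 3 arrays for each of the 8 groups, and the replicates carry the letters A, B and C. Resting Naive cells were CD4+CD62L+ T cells, purified to 95% from spleen and lymph nodes of mice aged 4 to 6 weeks. Stimulated Naive cells had been kept for 24 h on plates coated with anti-CD3 (1 µg/ml) and anti-CD28 (2 µg/ml). Resting Th2 cells had been grown from Naive cells on plates coated in the same way, with IL-4 (10 ng/ml), anti-IFN-gamma (10 µg/ml) and IL-2 (100 U/ml). Stimulated Th2 cells were such cultures after 1.5 h with PMA (50 ng/ml) and ionomycin (500 ng/ml). The BAF180-deficient mice carried a floxed Pbrm1 gene, which encodes the BAF180 subunit of the PBAF chromatin remodelling complex, with Cre driven by the CD4 promoter. This Cre acts late in thymocyte development, so the deletion preceded the collection of Naive cells and every culture step. The labels give Balb/c as the strain of both genotypes, whereas the methods describe a mixed background. The arrays came from 3 pairs of mice, each with 1 WT and 1 BAF180-deficient animal. Whether the WT mice carried Cre, and which letter belongs to which pair, is not given in the sources used here.

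Ubiquitin is attached to proteins by E1, E2 and E3 enzymes and is removed by deubiquitinases, of which the Usp genes form the largest family. Deubiquitinases rescue substrates from the proteasome, recycle ubiquitin, and edit the non-degradative ubiquitin chains that carry signals from the T cell receptor to NF-kappaB. Some family members are not proteases in this sense. Usp39 is a splicing factor, Usp52 (now Pan2) is a subunit of a poly(A) nuclease, Usp6nl is a Rab GTPase-activating protein, and Usp53 and Usp54 were for long classed as catalytically inactive.

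Upstream sequences are shown for 4 members that the cell state comparisons turn on, Uchl5 and Usp10, which rose on activation of Naive cells, and Usp28 and Usp19, which fell. Each is the 250 bases before the RefSeq start (GRCm38.p6, plus strand, 5′ to 3′), at chr1:143777028-143777277 for Uchl5, chr8:119910110-119910359 for Usp10, chr9:48985135-48985384 for Usp28 and chr9:108490426-108490675 for Usp19. Capitals mark the GC box GGGCGG, which SP and KLF factors bind, on either strand, with overlapping matches counted separately.
Uchl5: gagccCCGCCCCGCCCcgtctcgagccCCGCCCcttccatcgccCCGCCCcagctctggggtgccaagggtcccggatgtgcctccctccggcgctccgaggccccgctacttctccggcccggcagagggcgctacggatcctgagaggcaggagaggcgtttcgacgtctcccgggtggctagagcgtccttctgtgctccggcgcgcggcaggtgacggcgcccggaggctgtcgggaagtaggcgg
Usp10: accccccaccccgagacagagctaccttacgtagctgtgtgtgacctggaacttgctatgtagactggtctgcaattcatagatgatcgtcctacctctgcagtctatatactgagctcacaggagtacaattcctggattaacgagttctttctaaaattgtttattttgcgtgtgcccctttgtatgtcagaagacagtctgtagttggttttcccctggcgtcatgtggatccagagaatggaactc
Usp28: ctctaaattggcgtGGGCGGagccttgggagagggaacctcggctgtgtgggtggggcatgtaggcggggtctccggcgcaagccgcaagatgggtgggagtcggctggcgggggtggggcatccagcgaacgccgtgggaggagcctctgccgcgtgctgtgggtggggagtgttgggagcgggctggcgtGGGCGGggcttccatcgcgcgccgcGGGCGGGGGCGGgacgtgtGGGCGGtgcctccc
Usp19: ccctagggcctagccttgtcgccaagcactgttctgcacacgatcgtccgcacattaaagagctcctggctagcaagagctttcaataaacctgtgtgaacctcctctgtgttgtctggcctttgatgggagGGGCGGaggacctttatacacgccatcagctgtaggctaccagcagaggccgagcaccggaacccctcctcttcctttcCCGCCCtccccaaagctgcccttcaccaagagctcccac

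The GC box occurs 4 times upstream of Uchl5, 5 times upstream of Usp28, 2 times upstream of Usp19 and not in the Usp10 window. A window was available for 34 of the 45 member genes. Among the 9 genes that rose in both genotypes on activation, 3 of 6 windows held the motif (50.0%), and among the 9 that fell, 6 of 7 windows did (85.7%), against 32.7% of all 32851 windows. Of the 7 windows, 2 belong to Usp6nl, and both held the motif. All windows include those of genes not detected on these arrays, whereas the members were kept by detection. The E-box CACGTG of MYC and MAX was in 1 window of each group (6.02% of all windows). The ETS site CCGGAAGT was in 1 window of the genes that rose, that of Usp16, and in no window of the genes that fell (2.88% of all). The CREB element TGACGTCA (1.55% of all) and the NRF1 site (0.782% of all) were in no window of either group. These counts describe the letters in the windows.

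All values are log2 intensities after background correction and quantile normalization over the 24 arrays, and each difference is a difference of group means with its standard error from 1 limma model of the 8 groups. A gene is described by its brightest kept probe unless another probe is named. The arrays detected 8047 to 10689 probes, replicate arrays correlated at 0.949 to 0.989, and the median standard error of a difference was 0.19. The targeted gene was lower in the BAF180-deficient cells in every state. Pbrm1 intensity was 278 to 405 on the WT arrays and 139 to 219 on the BAF180-deficient arrays in resting Naive cells, 297 to 418 on the WT arrays and 66 to 154 on the BAF180-deficient arrays in stimulated Naive cells, 455 to 517 on the WT arrays and 114 to 134 on the BAF180-deficient arrays in resting Th2 cells and 266 to 350 on the WT arrays and 78.4 to 126 on the BAF180-deficient arrays in stimulated Th2 cells. All CD4 T cell markers (6 of 6) were detected in every group. In these bulk samples, fewer cells of a type and less RNA per cell cannot be told apart.

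The resting Naive arrays differed from the others in genes of other cells and of recent stimulation. The summed intensity of 5 myeloid genes was 1463, 2035 and 4684 on the WT arrays and 1608, 2120 and 2105 on the BAF180-deficient arrays A, B and C, against 18.9 to 59.3 on the arrays of the other states, where Lyz2, Cd14 and Tyrobp were not detected. Itgam was detected in no group. The B cell sum was 320.2 to 971 on the resting Naive arrays, highest on both C arrays, and 19.5 to 392 elsewhere. Stimulation genes such as Egr1 and Fos summed to 6950 to 11490 on the resting Naive arrays, lowest on both C arrays, and to 170 to 514 on the resting Th2 arrays. They summed to 2832 to 4565 on the stimulated Naive and 2929 to 4487 on the stimulated Th2 arrays. Of 6 Th2 markers, 2 were detected in resting Naive cells and 5 in resting Th2 cells, but 5 also in stimulated Naive cells. The 5 Naive T cell markers summed to 2732 to 3589 in WT resting Naive and 2939 to 3719 in WT resting Th2 cells. In WT stimulated Naive cells the Naive T cell markers summed to 392 to 625. The Th2 markers thus differed between resting Th2 and resting Naive cells, and the Naive markers between resting Th2 and stimulated Naive cells. Neither list alone set resting Th2 cells apart from both Naive states. The part of these other genes in the member differences that involve resting Naive cells was not tested.

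Loss of BAF180 went with few measurable differences in this family. The only member called in any state was Usp25, which is described as a regulator of NF-kappaB signalling downstream of receptors of the IL-17 and Toll-like families. It was lower in BAF180-deficient than in WT resting Naive cells. A genotype difference was called by the methods' 4 criteria together, an absolute Z-ratio above 1.5, FDR below 0.3, p below 0.05 and a mean signal above 0. By these, 1 of 55 member probes was called in resting Naive cells, where 0.681% of the 14246 kept probes were called. No member probe was called in stimulated Naive (0.112% of all kept probes), resting Th2 (0.0842%) or stimulated Th2 cells (0.0913%). The member probes with an unadjusted p below 0.05 numbered 4 in resting Naive cells (7.27%, against 6.83% of all kept probes), 1 in stimulated Naive cells (1.82%, against 2.25%), 3 in resting Th2 cells (5.45%, against 3.43%) and 1 in stimulated Th2 cells (1.82%, against 2.79%).

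Usp25 was at 5.36, 5.08 and 5.18 on the WT resting Naive arrays and at 4.58, 4.46 and 4.34 on the BAF180-deficient arrays. All BAF180-deficient arrays lay below all WT arrays. The difference was -0.75 (SE 0.17, adjusted p = 0.126). The probe was detected on 3 of 3 WT arrays and on 0 of 3 BAF180-deficient arrays, so that the WT level was at least 1.32-fold higher. Over the 24 arrays the probe was detected on 12. In stimulated Naive cells Usp25 was at 4.65, 4.91 and 4.98 in WT and 4.43, 4.56 and 4.58 in BAF180-deficient cells, again without overlap, but the difference of -0.32 (adjusted p = 1) was not called. In resting Th2 cells it was at 5.40, 4.75 and 4.93 in WT and 4.53, 4.76 and 4.53 in BAF180-deficient cells, and in stimulated Th2 cells at 4.92, 4.48 and 5.20 and 4.41, 4.55 and 4.54. The groups overlapped in both Th2 states, with differences of -0.42 (adjusted p = 1) and -0.36 (adjusted p = 1). Usp25 was thus lower in the BAF180-deficient mean in all 4 states. Its call in resting Naive cells was lost with Z-score normalization (difference -0.31, adjusted p = 1), with only the arrays compared in the fit (adjusted p = 0.9997) or in the normalization (-0.43, adjusted p = 0.9986), and at an adjusted p below 0.05. It held without any 1 of the 6 arrays, where the adjusted p ran from 0.0841 to 0.268, and without both C arrays (-0.70, adjusted p = 0.205).

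**Figure D1:**
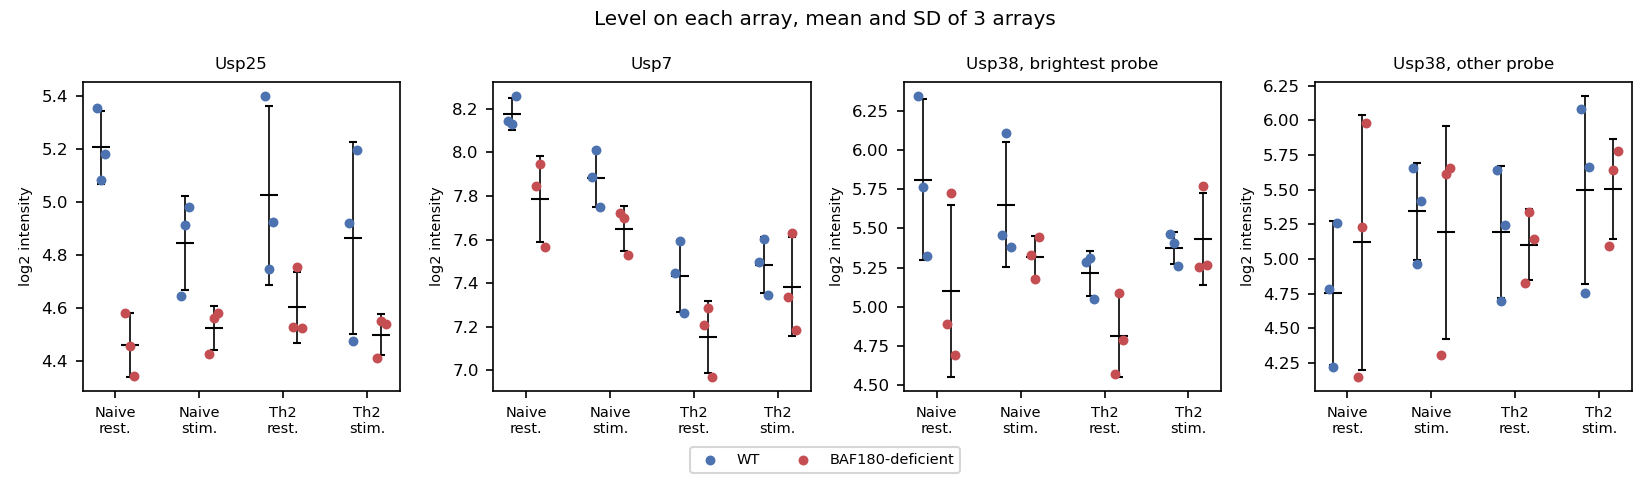
Log2 intensity of Usp25, Usp7 and both kept probes of Usp38 on each array (points, WT blue and BAF180-deficient red), with the mean and SD of the 3 arrays of a group, by cell state. In resting Naive cells the BAF180-deficient Usp25 and Usp7 points lie below all WT points, and the probes of Usp38 differ in direction (-0.71 and 0.36).

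Other members with larger genotype differences did not pass the criteria. Usp7, which removes ubiquitin from p53 and from its ligase Mdm2, was at 8.14, 8.13 and 8.26 on the WT and 7.85, 7.94 and 7.57 on the BAF180-deficient resting Naive arrays. These groups did not overlap, and the difference was -0.39 (SE 0.14, adjusted p = 0.544). In stimulated Naive cells the Usp7 groups also did not overlap, with a difference of -0.23. The brightest probe of Usp38 was at 6.35, 5.76 and 5.33 in WT and 4.89, 5.72 and 4.69 in BAF180-deficient resting Naive cells, a difference of -0.71 (adjusted p = 0.572). Its other kept probe, at 4.79, 4.22 and 5.26 and 4.15, 5.23 and 5.98, differed in the opposite direction by 0.36 (adjusted p = 1). Usp38 passed the criteria without resting Naive BAF180-deficient B (-1.02, adjusted p = 0.226) or without resting Naive WT C (-0.95, adjusted p = 0.133), which made 2 calls among the members. Blocking on the replicate letter added Usp7 (-0.39, adjusted p = 0.275), and blocking within each cell state added Usp7 (adjusted p = 0.219) and Usp38 (adjusted p = 0.283). The calls over all kept probes rose as well, from 97 to 122 and 592, respectively.

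In the resting Naive comparison, Usp16, a histone H2A deubiquitinase, differed by -0.35 (adjusted p = 0.702) and Uchl5 by -0.42 (adjusted p = 0.921). Usp5, which takes apart unanchored ubiquitin chains, differed by 0.35 (adjusted p = 0.786) in resting Naive and by 0.33 in stimulated Naive cells. Usp8, an endosomal deubiquitinase, differed by -0.54 (adjusted p = 1) in stimulated Naive cells, while another of its probes differed by 0.0075. In resting Th2 cells the members with the lowest values were Usp25, Usp38 at -0.40, Usp9x at -0.37, Usp28 at -0.35 and Usp3 at -0.35. Usp28 was at 5.21, 5.45 and 4.94 on the WT and 4.82, 4.90 and 4.83 on the BAF180-deficient resting Th2 arrays, without overlap (adjusted p = 0.9999).

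The direction of the members was uneven between states. In resting Th2 cells 42 of 55 member probes had the lower mean in BAF180-deficient cells (76.4%, median difference -0.09), where 49.9% of all kept probes did. In stimulated Naive cells 39 did (70.9%, median -0.07, against 49.4% of all), in resting Naive cells 32 (58.2%, median -0.04, against 50.4%), and in stimulated Th2 cells 26 (47.3%, median 0.01, against 49.6%). Groups that did not overlap were found for 5 member probes in resting Th2 cells (10.1% of all kept probes), 2 in stimulated Th2 cells (7.31%), 4 in resting Naive cells (7.99%) and 7 in stimulated Naive cells (6.46%). In both Th2 states the 8 kept genes of an interferon response list were lower in the BAF180-deficient mean (median -0.76 resting and -0.50 stimulated, none called). Of these states, only resting Th2 cells had most member probes lower. The part of the interferon genes in the member values was not tested.

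**Figure D2:**
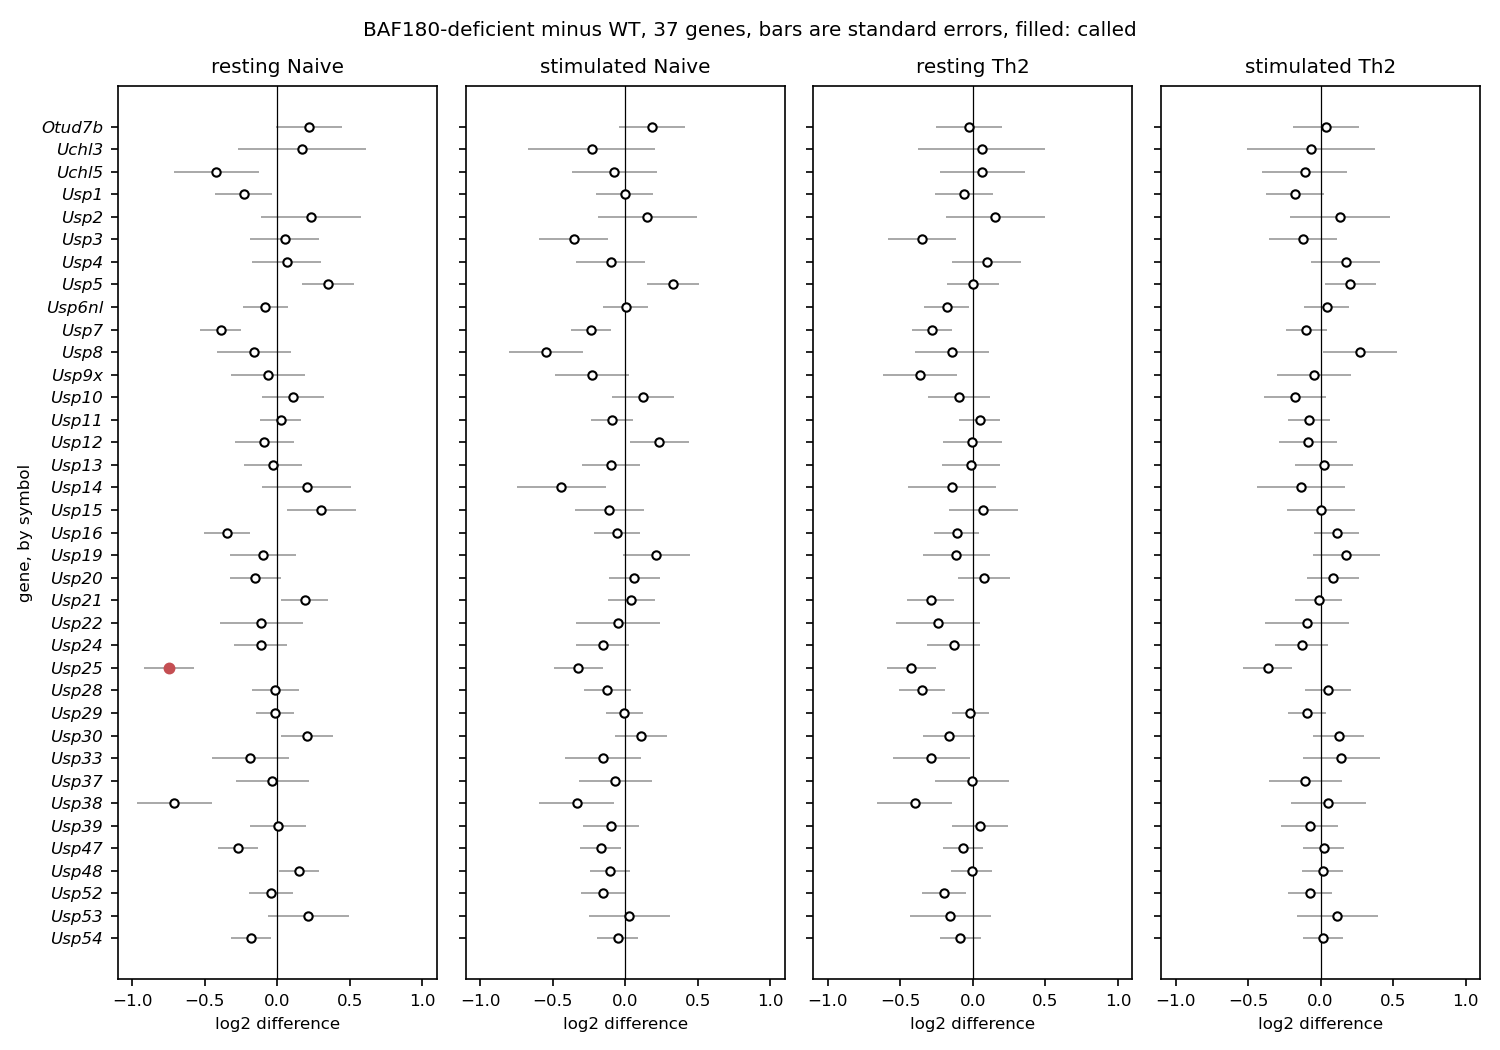
Difference in log2 intensity, BAF180-deficient minus WT, for the 37 genes (brightest kept probe, ordered by symbol) in each of 4 cell states, with bars for the standard error. The filled point is Usp25 in resting Naive cells at -0.75, the only call among the members.

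Differences between cell states were larger and more frequent in the family than genotype differences, as they also were over all kept probes. Genotype calls were 0.0842% to 0.681% of all kept probes. State calls used an adjusted p below 0.05 and genotype calls the methods' criteria, so these counts rest on unlike rules. At an adjusted p below 0.05 alone, 0 member probes and 15 of all kept probes were called between genotypes in resting Naive cells. Activation of WT Naive cells through CD3 and CD28 for 24 h changed 33 of 55 member probes at an adjusted p below 0.05, 19 higher and 14 lower, where 43.6% of all kept probes were called (23.6% higher and 20% lower). Resting Th2 cells differed from resting Naive cells in 22 member probes, 10 higher and 12 lower (34.4% of all, 18.4% higher and 16% lower). PMA and ionomycin changed 15 member probes in WT Th2 cells, 8 higher and 7 lower (27.3% of all, 13% higher and 14.3% lower). When repeated on the BAF180-deficient arrays, activation called 28 member probes, 16 up and 12 down (41.6% of all, 22.3% up and 19.3% down). The Th2 comparison called 21 there, 7 up and 14 down (34.7% of all, 18.8% up and 15.9% down), and PMA and ionomycin 15, 11 up and 4 down (25.8% of all, 12% up and 13.8% down). By gene, the WT comparisons called 21, 13 and 10 of 37. The activation and Th2 comparisons share the resting Naive arrays, and the Th2 and PMA comparisons share the resting Th2 arrays, so their values are given side by side.

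Uchl5 and Uchl3 were higher in activated than in resting Naive cells in both genotypes, and Usp14 in WT. Uchl5, which binds the proteasome through Adrm1 and is also found in the INO80 chromatin complex, was at 5.98, 6.11 and 7.10 in WT resting Naive and 7.69, 8.13 and 8.73 in WT stimulated Naive cells. It rose by 1.78 (SE 0.29, adjusted p = 4.79e-05) without overlap. In BAF180-deficient cells it went from 6.07, 5.64 and 6.22 to 7.56, 8.04 and 8.72, a rise of 2.13 (SE 0.29, adjusted p = 6.11e-06). The other 2 kept Uchl5 probes rose by 1.70 and 1.85 in WT cells. In resting Th2 cells Uchl5 was at 7.41, 6.93 and 7.35 in WT, higher than in resting Naive cells by 0.83 (adjusted p = 0.0337), and by 1.32 (adjusted p = 0.00156) in BAF180-deficient cells. All 3 kept Uchl5 probes were higher in resting Th2 than in resting Naive cells in both genotypes. Of these, 2 were called in WT and 1 in BAF180-deficient cells. PMA and ionomycin moved the brightest Uchl5 probe by 0.05, which was not called.

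Uchl3, a hydrolase that processes ubiquitin and NEDD8 precursors, was at 6.71, 6.13 and 5.74 in resting and 7.11, 8.36 and 8.65 in stimulated WT Naive cells, a rise of 1.85 (SE 0.44, adjusted p = 0.00169). The arrays of each group spread widely, but the groups did not overlap. In BAF180-deficient cells it rose by 1.45 (adjusted p = 0.0108), a call lost without stimulated Naive C (difference 0.82, adjusted p = 0.111). Usp14, which trims chains on substrates at the proteasome, was at 4.34, 4.96 and 4.45 in resting Naive, 5.04, 6.02 and 5.70 in stimulated Naive and 5.56, 5.54 and 5.53 in resting Th2 WT cells. On resting Naive A and C the signal lay below the lowest detected one (5.02 and 4.68). Usp14 rose in WT cells on activation by 1.00 (adjusted p = 0.0109) and was higher in resting Th2 cells by 0.96 (adjusted p = 0.0189). Its calls were lost on activation without stimulated Naive B (adjusted p = 0.0693) and for Th2 without resting Naive A or C (adjusted p from 0.0522 to 0.078). In BAF180-deficient cells the Usp14 differences were 0.36 and 0.61, neither of them called.

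Histone deubiquitinases moved in both directions. Usp16, which acts on histone H2A, was at 7.50, 7.47 and 7.79 in resting and 8.44, 7.99 and 7.88 in stimulated WT Naive cells and rose by 0.52 (adjusted p = 0.0111), a call lost without stimulated Naive A (adjusted p = 0.0888). In BAF180-deficient cells it rose by 0.81 (adjusted p = 0.000295). After PMA and ionomycin, Usp16 went from 7.49, 7.37 and 7.10 to 7.99, 7.81 and 8.02 in WT Th2 cells, a rise of 0.62 (SE 0.16, adjusted p = 0.0048), and it rose by 0.84 (adjusted p = 0.000386) in BAF180-deficient Th2 cells. The stimulated Th2 arrays lay above all resting Th2 arrays in both genotypes, and this pair of calls held under every alternative.

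Usp22, the H2B deubiquitinase of the SAGA coactivator, was lower in activated cells. It was at 8.59, 8.59 and 7.40 on the WT resting Naive arrays and at 7.41, 6.76 and 7.08 on the stimulated ones. Array C of resting Naive cells stood apart from A and B, also in BAF180-deficient cells (8.37, 8.52 and 7.36). On activation it fell, with a difference of -1.11 (SE 0.29, adjusted p = 0.00353) in WT and -1.05 (adjusted p = 0.00555) in BAF180-deficient cells. In both genotypes stimulated array A lay just above resting array C. Between resting Th2 and resting Naive cells the Usp22 difference was not called in WT. In BAF180-deficient cells it was -0.86 (adjusted p = 0.0255), a call lost without resting Th2 A or C or resting Naive A or B (adjusted p from 0.0576 to 0.138). Usp3, which acts on H2A and H2B, was at 7.49, 7.24 and 7.32 in resting and 6.54, 6.92 and 6.56 in stimulated WT Naive cells. It fell, with a difference of -0.67 (adjusted p = 0.0254) in WT and -1.08 (adjusted p = 0.000871) in BAF180-deficient cells, and its other kept probe fell, with a difference of -1.34 and -1.36. After PMA and ionomycin the brightest Usp3 probe fell, with a difference of -0.74 (adjusted p = 0.0226) in WT cells, while its -0.51 in BAF180-deficient cells was not called. The other probe fell, with a difference of -1.27 in WT and -1.25 in BAF180-deficient cells. That probe was also called lower in resting Th2 than in resting Naive cells, with differences of -0.57 in WT and -0.70 in BAF180-deficient cells. The brightest Usp3 probe differed there by 0.31 and -0.09, neither of them called. The WT calls of the brightest probe were lost on activation without resting Naive A or stimulated Naive A or C (adjusted p from 0.0785 to 0.0832) and after PMA without stimulated Th2 A or C or resting Th2 A or B (adjusted p from 0.0536 to 0.145).

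Usp7 differed between Naive and Th2 cells. It was at 8.14, 8.13 and 8.26 in WT resting Naive and 7.45, 7.59 and 7.26 in WT resting Th2 cells, lower in Th2 cells, with a difference of -0.74 (SE 0.14, adjusted p = 0.000307) and of -0.63 (adjusted p = 0.00136) in BAF180-deficient cells. The WT groups did not overlap. On activation Usp7 differed by -0.30 in WT cells and after PMA by 0.05, neither of them called.

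**Figure D3:**
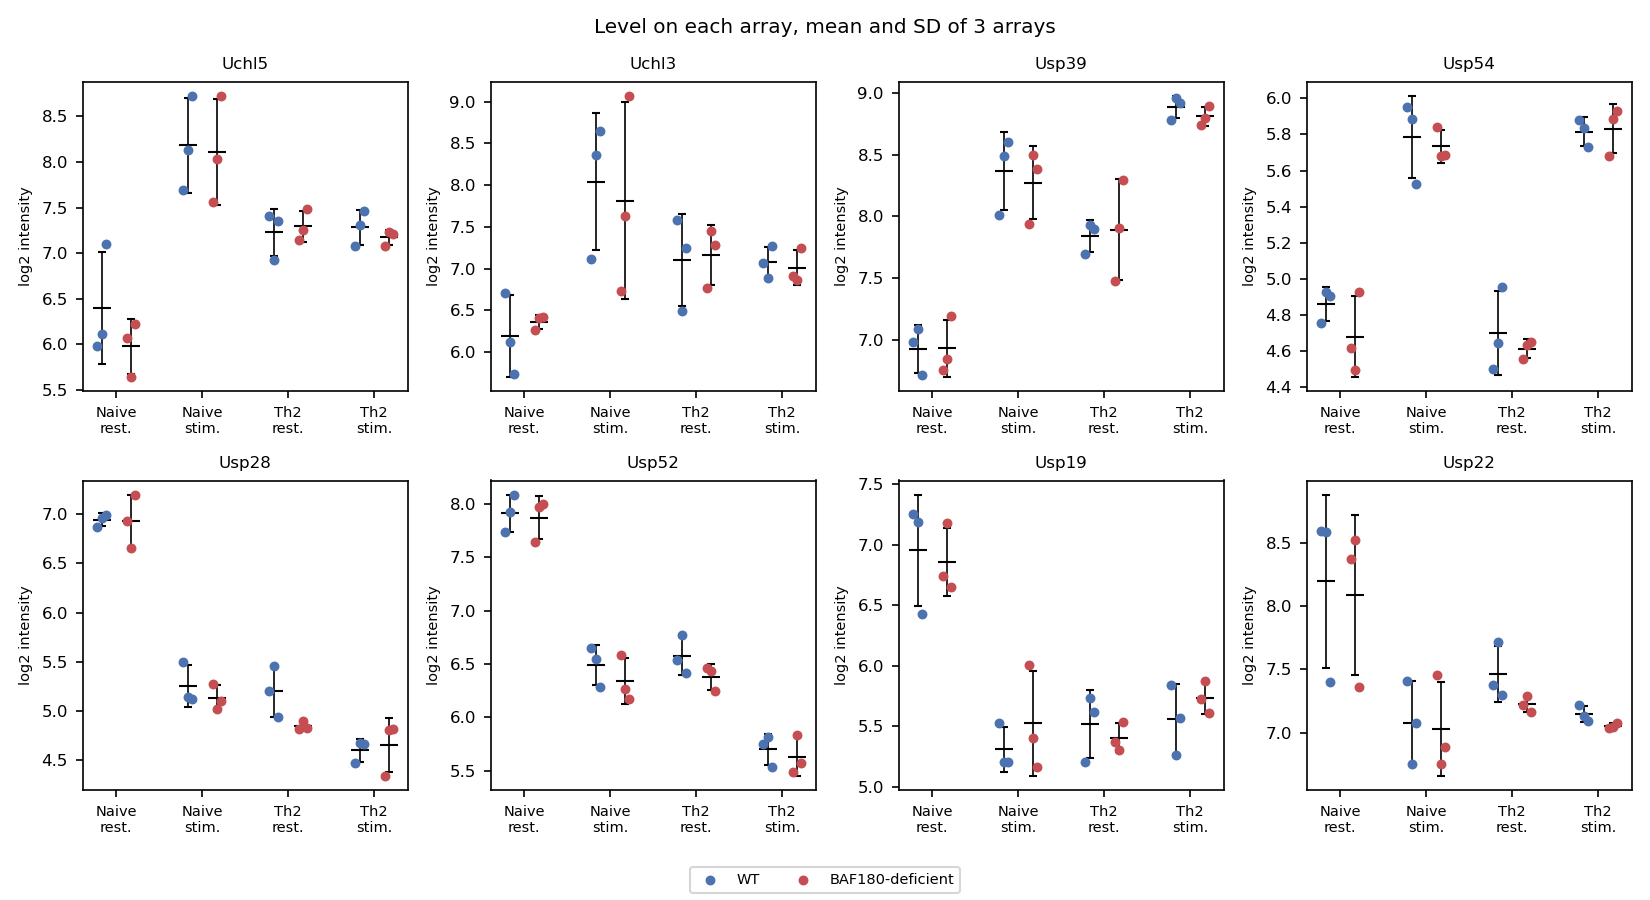
Log2 intensity on each array (points, WT blue and BAF180-deficient red), with the mean and SD of the 3 arrays of a group, for 4 members that rose on activation (Uchl5, Uchl3, Usp39, Usp54) and 4 that fell (Usp28, Usp52, Usp19, Usp22). Array C of resting Naive cells lies below A and B for Usp22, at 7.40 in WT and 7.36 in BAF180-deficient cells.

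Members tied to the cell cycle and to DNA damage also went both ways. Usp28, which binds the DNA damage protein Trp53bp1 and counteracts the turnover of MYC, was at 6.87, 6.96 and 6.99 in WT resting Naive cells and lower in all other states. It was at 5.50, 5.14 and 5.13 in stimulated Naive, 5.21, 5.45 and 4.94 in resting Th2 and 4.47, 4.68 and 4.67 in stimulated Th2 cells. It fell on activation, with a difference of -1.68 (SE 0.16, adjusted p = 4.55e-08) in WT and -1.79 (SE 0.16, adjusted p = 1.98e-08) in BAF180-deficient cells. In resting Th2 cells it was lower than in resting Naive cells, with a difference of -1.74 (SE 0.16, adjusted p = 4.98e-08) and -2.08 (SE 0.16, adjusted p = 3.97e-09). In each genotype the resting Naive arrays lay above all arrays of these states. After PMA and ionomycin it fell in WT Th2 cells, with a difference of -0.59 (adjusted p = 0.00794), a call lost without resting Th2 B (adjusted p = 0.0582).

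Usp1, which with Wdr48 deubiquitinates PCNA and FANCD2, was at 7.17, 7.27 and 7.34 in resting and 7.86, 7.68 and 8.19 in stimulated WT Naive cells. It rose by 0.65 (adjusted p = 0.0111), a call lost without stimulated Naive C (adjusted p = 0.0732), and by 0.88 (adjusted p = 0.00115) in BAF180-deficient cells, and its other kept probes rose by 0.59 and 1.26 in WT. Between resting Th2 and resting Naive WT cells the brightest Usp1 probe differed by 0.08, which was not called. Another Usp1 probe, ILMN_2781170, was called higher there, by 1.35 in WT and 1.00 in BAF180-deficient cells. Usp37, a deubiquitinase of cyclin A, was not detected on any resting Naive array and was at 4.74, 5.77 and 5.10 in WT and 4.62, 5.47 and 5.32 in BAF180-deficient stimulated Naive cells. Its level was at least 1.27-fold higher on activation in WT cells (adjusted p = 0.00431), where 3 of 3 stimulated arrays detected it, and at least 1.25-fold higher in BAF180-deficient cells (adjusted p = 0.00568), where 2 of 3 did and the bound rests on the mean of all 3. In WT resting Th2 cells it was at least 1.09-fold higher than in resting Naive cells (adjusted p = 0.031), a call lost when any 1 of the 6 arrays was left out (adjusted p from 0.0602 to 0.0739).

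Usp19, which is anchored in the endoplasmic reticulum membrane, was at 7.25, 7.18 and 6.42 in WT resting Naive and 5.52, 5.20 and 5.20 in WT stimulated Naive cells. It fell, with a difference of -1.64 (SE 0.23, adjusted p = 6.83e-06) in WT and -1.33 (adjusted p = 8.41e-05) in BAF180-deficient cells, and in resting Th2 cells it was lower, with a difference of -1.44 (adjusted p = 6e-05) and -1.45 (adjusted p = 5.55e-05). The groups did not overlap in these comparisons, and PMA and ionomycin moved it by 0.04, which was not called. Usp33 and Usp20, paralogs first found as partners of the VHL ligase, had lower means in activated Naive cells. Usp33 fell, with a difference of -0.82 (adjusted p = 0.0156) and -0.79 (adjusted p = 0.0209). Its calls were lost in WT without resting Naive A or B or stimulated Naive A (adjusted p from 0.0597 to 0.0868) and in BAF180-deficient cells without resting Naive B or stimulated Naive A or B (adjusted p from 0.0642 to 0.131). Usp20 fell on activation in WT, with a difference of -0.52 (adjusted p = 0.021), a call lost without resting Naive A or stimulated Naive C (adjusted p from 0.0775 to 0.135), and was not called in BAF180-deficient cells. After PMA and ionomycin it fell, with a difference of -0.60 (adjusted p = 0.0147) in WT and -0.59 (adjusted p = 0.0172) in BAF180-deficient cells, calls lost in WT without stimulated Th2 B or C or resting Th2 C (adjusted p from 0.0517 to 0.0843) and in BAF180-deficient cells without stimulated Th2 C or resting Th2 B (adjusted p from 0.0523 to 0.122).

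Usp10, which binds the stress granule protein G3bp1 and stabilises p53, rose with stimulation of either cell type. It was at 4.74, 4.30 and 4.97 in resting and 5.41, 6.01 and 5.81 in stimulated WT Naive cells, and at 5.37, 5.04 and 5.29 in resting and 6.47, 6.15 and 6.48 in stimulated WT Th2 cells. Neither pair of groups overlapped. On WT resting Naive A and B the signal lay below the lowest detected one (5.02 and 4.88), so the activation rise starts near background. The rises were 1.08 (SE 0.21, adjusted p = 0.00032) and 1.13 (SE 0.21, adjusted p = 0.000355) in WT and 1.09 (adjusted p = 0.000291) and 1.05 (adjusted p = 0.000877) in BAF180-deficient cells. In WT resting Th2 cells this probe was also higher than in resting Naive cells by 0.57 (adjusted p = 0.0443), a call lost without resting Th2 A or C or resting Naive A or B (adjusted p from 0.0723 to 0.217). It was not called in BAF180-deficient cells.

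The other 2 Usp10 probes gave different pictures. One, ILMN_1217931, moved as the brightest did, by 0.77 on activation and 0.95 after PMA and ionomycin in WT cells. The other, ILMN_2868188, was at 6.95, 5.17 and 6.04 in WT resting Naive and 4.75, 4.39 and 4.94 in WT resting Th2 cells. It was lower in Th2 cells, with a difference of -1.36 (SE 0.36, adjusted p = 0.00565) in WT and -1.61 (SE 0.36, adjusted p = 0.0015) in BAF180-deficient cells, the opposite direction to the brightest probe. On activation it differed by -0.54 and after PMA by -0.03 in WT cells, neither of them called. Of the 11 genes with more than 1 kept probe, Usp10 was the only one with calls in both directions in 1 comparison. The transcripts that each probe reports were not compared here.

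**Figure D4:**
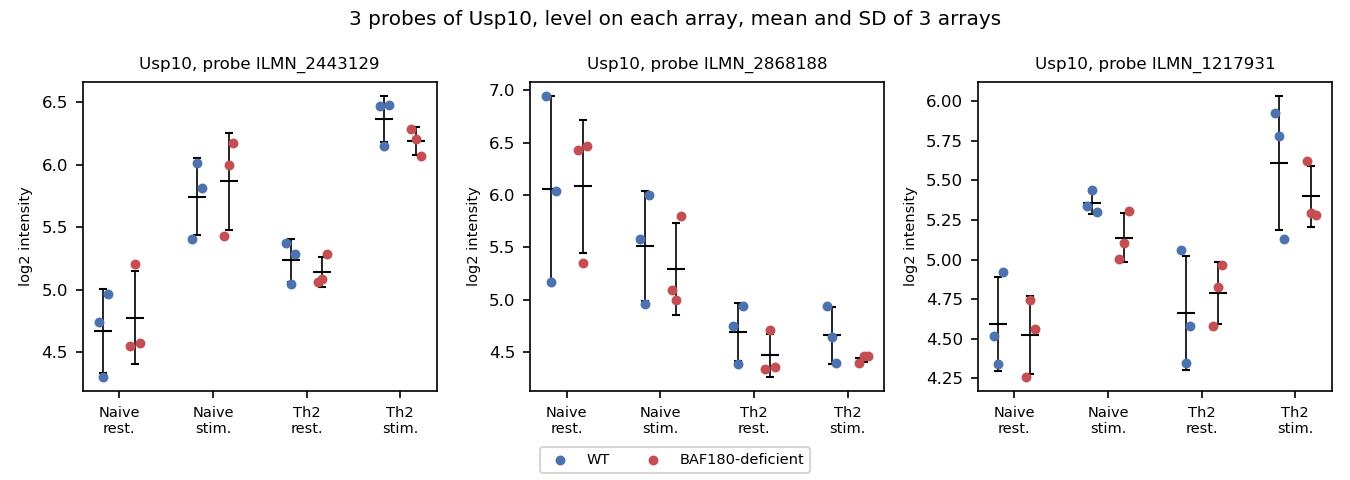
Log2 intensity of the 3 kept Usp10 probes on each array (points, WT blue and BAF180-deficient red), with the mean and SD of the 3 arrays of a group. ILMN_2443129, the brightest, and ILMN_1217931 rose with stimulation, while ILMN_2868188 was lower in resting Th2 than in resting Naive cells, with a difference of -1.36 in WT.

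The members that are not typical proteases gave some of the clearest differences. Usp39, a component of the spliceosome tri-snRNP, was at 6.98, 7.08 and 6.71 in resting Naive, 8.01, 8.49 and 8.61 in stimulated Naive, 7.70, 7.93 and 7.90 in resting Th2 and 8.78, 8.96 and 8.92 in stimulated Th2 WT cells. Each stimulated group lay above its resting group. It rose by 1.44 (SE 0.19, adjusted p = 4.21e-06) on activation and 1.05 (SE 0.19, adjusted p = 0.000315) after PMA and ionomycin, and it was higher in resting Th2 than in resting Naive cells by 0.92 (SE 0.19, adjusted p = 0.000978). The BAF180-deficient values were 1.34, 0.92 and 0.96, each of them called. All 4 Usp39 probes rose on activation in WT cells, by 1.28 to 1.51.

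Usp52 (Pan2) was at 7.74, 7.92 and 8.09 in resting Naive, 6.65, 6.55 and 6.29 in stimulated Naive, 6.54, 6.77 and 6.42 in resting Th2 and 5.76, 5.82 and 5.54 in stimulated Th2 WT cells. It fell, with a difference of -1.42 (SE 0.15, adjusted p = 2.09e-07) on activation and -0.87 (SE 0.15, adjusted p = 0.000161) after PMA and ionomycin, and was lower in resting Th2 than in resting Naive cells, with a difference of -1.34 (SE 0.15, adjusted p = 8.13e-07), without overlap in any of these comparisons. The BAF180-deficient differences were -1.53, -0.75 and -1.49, all called. All 3 kept Usp52 probes were lower in each of these comparisons, and all were called on activation. In the Th2 and PMA comparisons 2 of the 3 were called in each genotype. The smallest WT differences there were -0.39 and -0.19. Usp54 was raised in both stimulated states and not in resting Th2 cells. It was at 4.75, 4.93 and 4.91 in resting and 5.95, 5.88 and 5.53 in stimulated Naive cells, and at 4.50, 4.64 and 4.96 in resting and 5.88, 5.84 and 5.73 in stimulated Th2 cells of WT mice. The rises were 0.92 (SE 0.14, adjusted p = 1.87e-05) and 1.12 (SE 0.14, adjusted p = 4.01e-06) in WT and 1.05 and 1.22 in BAF180-deficient cells, all 4 called under every alternative. Between resting Th2 and resting Naive WT cells Usp54 differed by -0.16 (adjusted p = 0.406). Its signals on WT resting Naive A and resting Th2 A and B lay below the lowest detected ones (5.02, 4.55 and 4.67).

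Usp53 was at 6.91, 6.57 and 5.14 in WT resting Naive cells, with array C below A and B, and at 4.65, 4.88 and 4.51 in stimulated Naive and 4.81, 4.67 and 4.59 in resting Th2 cells. It fell, with a difference of -1.53 (SE 0.28, adjusted p = 0.000142) on activation and was lower in Th2 cells, with a difference of -1.52 (SE 0.28, adjusted p = 0.000264), and the BAF180-deficient values were -1.71 and -1.88. Its signals on WT stimulated Naive A and C lay below the lowest detected ones (4.70 and 4.57). Usp6nl was lower in resting Th2 than in resting Naive cells, with a difference of -1.21 (adjusted p = 4.34e-06) and -1.31 (adjusted p = 1.58e-06), and PMA and ionomycin raised it by 0.65 (adjusted p = 0.00297) and 0.88 (adjusted p = 0.000233). On activation it fell, with a difference of -0.50 (adjusted p = 0.012) and -0.42 (adjusted p = 0.0359). These activation calls were lost in WT without resting Naive C or stimulated Naive B or C (adjusted p from 0.0573 to 0.0823) and in BAF180-deficient cells without resting Naive B or C or stimulated Naive B or C (adjusted p from 0.0538 to 0.14). The other kept Usp6nl probe was called in none of these comparisons. Its WT and BAF180-deficient differences were -0.62 and -0.44 for Th2 and 0.48 and 0.58 after PMA and ionomycin. On activation they were -0.18 and 0.055.

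The remaining called members had smaller or less stable differences. Usp2, which stabilises cyclin D1, was at 6.57, 6.24 and 5.07 in WT resting Naive cells, with array C below A and B as in BAF180-deficient cells (6.64, 6.82 and 5.11). It fell on activation, with a difference of -0.96 (adjusted p = 0.0288) and -1.04 (adjusted p = 0.0194), calls lost in WT without resting Naive A or B or stimulated Naive B or C (adjusted p from 0.0741 to 0.172) and in BAF180-deficient cells without resting Naive A or B or stimulated Naive C (adjusted p from 0.0668 to 0.13). In resting Th2 cells it was lower, with a difference of -1.24 (adjusted p = 0.00813) and -1.31 (adjusted p = 0.00531), the WT call being lost without resting Naive A (adjusted p = 0.0625). Otud7b, which edits ubiquitin chains on Zap70 and TRAF3, rose on activation by 0.71 (adjusted p = 0.0149) and 0.68 (adjusted p = 0.0202), calls lost in WT without resting Naive A or stimulated Naive A (adjusted p from 0.0812 to 0.105) and in BAF180-deficient cells without resting Naive B or stimulated Naive A (adjusted p from 0.113 to 0.157). Usp8 rose on activation in WT by 0.65 (adjusted p = 0.0451), a call lost without resting Naive A or B or stimulated Naive A or B (adjusted p from 0.0768 to 0.258).

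Usp12, which like Usp1 acts with Wdr48, was lower in resting Th2 than in resting Naive cells, with a difference of -0.62 (adjusted p = 0.0213) in WT and -0.54 (adjusted p = 0.0446) in BAF180-deficient cells. These calls were lost in WT without resting Th2 A or C or resting Naive A (adjusted p from 0.0545 to 0.141) and in BAF180-deficient cells without resting Th2 A, B or C or resting Naive A or B (adjusted p from 0.0691 to 0.244). The WT Th2 call of Uchl5 was lost without resting Th2 A or C or resting Naive A or B (adjusted p from 0.0946 to 0.163). Usp33 was lower in resting Th2 cells of BAF180-deficient mice, with a difference of -0.74 (adjusted p = 0.0361), a call lost without resting Th2 A or C or resting Naive B (adjusted p from 0.0873 to 0.184). Usp5 fell after PMA and ionomycin in WT Th2 cells, with a difference of -0.54 (adjusted p = 0.0278), a call lost without stimulated Th2 B or C or resting Th2 B or C (adjusted p from 0.0571 to 0.125). Usp4, which removes ubiquitin from several signalling proteins, rose after PMA and ionomycin in BAF180-deficient Th2 cells by 0.70 (adjusted p = 0.034), a call lost without stimulated Th2 A or B or resting Th2 A or B (adjusted p from 0.0685 to 0.176), and its WT difference was 0.62. For Usp37 in BAF180-deficient resting Th2 cells, the call was lost without resting Th2 B or C or resting Naive A or B (adjusted p from 0.0521 to 0.0928). No state comparison called Usp9x, Usp11, Usp13, Usp15, Usp21, Usp24, Usp25, Usp29, Usp30, Usp38, Usp47 or Usp48 by its brightest probe, and their differences ran from -0.60 to 0.62.

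Left-out arrays also moved the counts. The WT comparison of resting Th2 with resting Naive cells called 13 to 28 member probes when 1 array was left out, 13 of them without resting Naive WT A. In BAF180-deficient cells this comparison called 13 to 20, with 13 without resting Th2 BAF180-deficient C, and PMA and ionomycin called 9 to 15, with 9 without resting Th2 BAF180-deficient B. By gene, 10 of 21 WT activation calls held under every alternative (Uchl3, Uchl5, Usp19, Usp22, Usp28, Usp37, Usp39, Usp52, Usp53 and Usp54), as did 5 of 13 for Th2 (Usp7, Usp19, Usp28, Usp39 and Usp53) and 2 of 10 for PMA and ionomycin (Usp16 and Usp54). Without both resting Naive C arrays, Usp6nl lost its WT activation call (-0.39, adjusted p = 0.0725) and Usp37 its Th2 calls (adjusted p = 0.0744 in WT and 0.0517 in BAF180-deficient cells), while the other gene calls that use these arrays held.

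WT and BAF180-deficient cells gave like state differences, from separate arrays. All 18 genes called on activation in BAF180-deficient cells were also called in WT, in the same direction, which is 85.7% of the 21 WT calls. For Th2 against Naive cells 11 genes were called in both genotypes, 84.6% of the 13 calls of each. For PMA and ionomycin 7 were, 70% of the 10 WT and 87.5% of the 8 BAF180-deficient calls. No gene was called in opposite directions. Over all kept probes the corresponding shares of WT calls were 81.2%, 77.8% and 76.8%. The difference of the differences was tested for each probe, and no member was called in any of the 3 comparisons (0.00702%, 0.00702% and 0% of all kept probes were called). The lowest unadjusted p among the members was 0.0932 for Usp25 on activation (0.42, SE 0.24), 0.0485 for Usp21 in Th2 against Naive cells (-0.48, SE 0.23) and 0.0928 for Usp28 with PMA and ionomycin (0.40, SE 0.23), and 0, 1 and 0 member probes had an unadjusted p below 0.05 (2.31%, 2.72% and 1.8% of all kept probes).

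**Figure D5:**
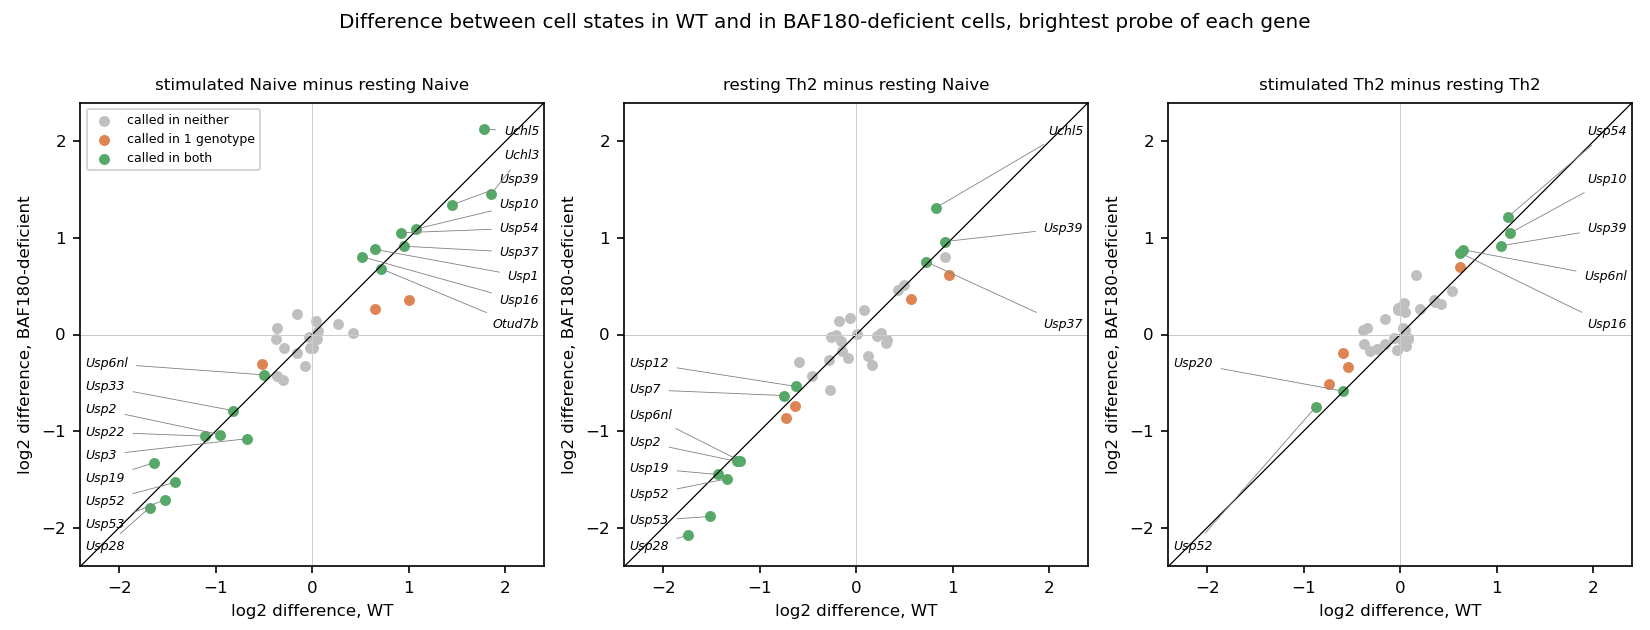
Difference in log2 intensity between cell states in WT (horizontal axis) and in BAF180-deficient cells (vertical axis) for the 37 genes by brightest probe, for activation of Naive cells, resting Th2 against resting Naive cells, and PMA and ionomycin in Th2 cells. Green points are called in both genotypes (18, 11 and 7 genes) and orange points in 1, and the line marks equal differences.

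Genes related to the family were called at shares near those of all kept probes or to either side of them (all kept probes in WT cells, 43.6% on activation, 34.4% for Th2 against Naive cells and 27.3% after PMA and ionomycin). A list of 20 other proteases of ubiquitin or ubiquitin-like proteins, Usp18 and OTU proteases among them, had 19 kept genes. Of these, 8 were called on activation in WT cells (42.1%, 5 higher and 3 lower), 7 for Th2 against Naive cells (36.8%, 2 higher and 5 lower) and 3 after PMA and ionomycin (15.8%, 2 higher and 1 lower), and the BAF180-deficient comparisons called 9, 9 and 4. Cops5, the deneddylase of the COP9 signalosome, rose on activation by 1.62 (adjusted p = 1.85e-06), and Psmd14, the deubiquitinase of the proteasome lid, by 1.24 (adjusted p = 0.00485). Tnfaip3, which encodes the NF-kappaB inhibitor A20, was lower in stimulated Naive and resting Th2 than in resting Naive WT cells, with differences of -2.78 (adjusted p = 6.26e-05) and -3.96 (adjusted p = 1.48e-06), and rose after PMA and ionomycin by 1.59 (adjusted p = 0.0142). Cyld, which removes linear and other non-degradative chains, fell after PMA and ionomycin, with a difference of -0.93 (adjusted p = 0.00215).

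Among 9 kept genes whose products work with members, 5 were called on activation in WT cells (55.6%, 3 higher and 2 lower), 2 for Th2 (22.2%, 1 higher and 1 lower) and 1 after PMA and ionomycin (11.1%). Adrm1, the proteasomal receptor of Uchl5, rose on activation by 0.59 (adjusted p = 0.0245) and after PMA and ionomycin by 0.68 (adjusted p = 0.0171). Nfrkb, the INO80 subunit that binds Uchl5, fell on activation, with a difference of -0.92 (adjusted p = 2.27e-05). G3bp1, the partner of Usp10, rose by 0.68 (adjusted p = 0.000875).

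Of 9 kept genes for ubiquitin, related modifiers and E1 enzymes, 5 were called on activation in WT cells (55.6%, 3 higher and 2 lower), 4 for Th2 (44.4%) and 3 after PMA and ionomycin (33.3%). Rps27a, which encodes ubiquitin fused to a ribosomal protein, rose on activation by 2.86 (adjusted p = 4.91e-09), while Uba7, the E1 enzyme of ISG15, fell, with a difference of -3.04 (adjusted p = 2.12e-08). Of 17 kept ubiquitin ligases known in T cells, 7 were called on activation (41.2%, 1 higher and 6 lower), 7 for Th2 (41.2%, 2 higher and 5 lower) and 4 after PMA and ionomycin (23.5%, 3 higher and 1 lower). Cblb, a ligase that restrains T cell receptor signalling, rose on activation by 0.86 (adjusted p = 0.0162), and Dtx1, the Deltex ligase, fell, with a difference of -2.57 (adjusted p = 1.02e-09). No gene of these 4 lists was called between genotypes in any state, with medians from -0.10 to 0.08.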

How the data were processed

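Total RNA of CD4 T cells was hybridised to 24 Illumina mouse BeadChip arrays, 3 for each of 8 groups of cell state and genotype. The authors deposited, per probe and array, a scanner intensity without normalization and a detection p-value, exported from GenomeStudio (version 1.6.0 per the submitters' processing notes). Here the intensities were background-corrected against the detection p-values and quantile-normalized with neqc (limma 3.58.1, R 4.3.3, offset 16), which sets every level relative to its array's distribution. A probe needed a detection p of 0.02 or less on 1 array or more to stay in (14246 of 25697). One limma model of the 8 group means gave all differences, with 16 residual degrees of freedom and Benjamini-Hochberg adjustment over all kept probes. The exact permutation test of 3 arrays against 3 cannot go below p = 0.1. Genotype calls used the methods' thresholds on limma values, and state calls an adjusted p below 0.05. An absolute Z-ratio of 1.5 corresponded to a log2 difference of 0.284 to 0.357. A gene is named by its brightest kept probe, and members past a threshold or with the largest genotype differences are named. "At least" folds set the detected group against the lowest detected signal of the arrays where a probe was not detected. The members and gene lists were chosen with earlier results of these data known. Same-letter arrays of the 2 genotypes deviated together when pooled over states (correlation 0.30 for A, 0.136 for B and 0.516 for C). In single states the correlation ran from -0.0026 (B, resting Naive) to 0.66 (C, stimulated Th2). The main model had no term for the letters, so its standard errors ignore any pairing. The letters entered only in the replicate blocks. Alternatives were Z-score normalization, no background correction, no or a stricter detection filter, a replicate block, only the compared arrays in the fit or normalization, other thresholds, other probes and leaving out each array. Upstream sequences are from RefSeq (GRCm38.p6) and were matched by symbol. The steps were tested on simulated data. The arrays' number limits the precision.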

Additional observations from a re-analysis of the deposited data

How the results depend on the processing

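The member counts kept within 1.5 times of their value under the alternatives run, with these exceptions. In resting Naive cells the 1 genotype call became 0 with Z-score normalization, with only the arrays compared in the fit, with normalization over only those arrays and at an adjusted p below 0.05 alone. It became 2 with the replicate block and 3 with the replicate block within each cell state, where the calls over all kept probes went from 97 to 122 and 592, and 1 to 2 when 1 array was left out. The settings with 0 member calls made 32, 1, 0 and 15 calls over all kept probes, in the order given. The replicate block changed no other member call of a named gene. Leaving out 1 array gave 26 to 33 member probes on activation in WT and 24 to 27 in BAF180-deficient cells, 13 to 28 and 13 to 20 for Th2 against Naive cells, 12 to 14 and 9 to 15 for PMA and ionomycin, and 0 in each of the other comparisons. Across 83 called gene values, the state calls were lost in 16 with Z-score normalization, 11 without a detection filter, 20 with only the compared arrays in the fit, 20 with normalization over only those, 2 without background correction, 2 with the replicate block within each genotype and 91 of 498 recomputations without 1 array. With another kept probe of the same gene, a state call was kept in 43 recomputations, lost with the same sign in 16 and reversed in sign in 7. For these losses the cause was not tested, apart from the fewer arrays in some fits. Other probes reversed the sign for Usp38 (genotype, resting Naive, 0.36), Usp8 (genotype, stimulated Naive, 0.0075; activation in WT, -0.14), Usp6nl (activation in BAF180-deficient cells, 0.055) and Usp10 (activation in WT -0.54 and BAF180-deficient cells -0.79, Th2 in WT -1.36, PMA in WT -0.0328 and BAF180-deficient cells -0.0284). The replicate block within state or genotype and the omission of both resting Naive C arrays were chosen after seeing the data. A BeadChip block was not run, since the headers name no chips. Probes near background, such as those of Usp25 and Usp37, give only bounds on a fold change. Other called brightest probes were also undetected on some of the 24 arrays. They were detected on 17 (Usp53), 18 (Usp12 and Usp54), 19 (Usp8 and Usp14), 20 (Usp10) and 21 arrays (Usp28 and Otud7b).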
